A study of Mus musculus with 6 samples.

Results

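The mark H3K9ac, the acetylation of lysine 9 of histone H3, was examined at 36 genes that drive or mark the cell cycle. They were chosen by symbol: 8 G1 cyclins and cyclin-dependent kinases (CDKs), 5 CDK inhibitors, the regulators Myc, E2f1 and E2f2, 7 replication genes and 13 genes of the G2 and M phases. All peaks that the deposited annotation gave to these symbols were taken, at the gene start and away from it, which came to 55 of 17901 peaks. Of the 36 genes, 32 had a peak and 4 had none under their own symbol: Aurka, Bub1, Ccnd2 and Cdkn2a. H3K9ac was profiled by CUT&RUN, in which a nuclease guided by an antibody releases the DNA under the mark, in endothelial cells isolated from mouse lung. The 2 groups were 3 libraries from CSE-KO mice (Cre-positive) and 3 libraries from WT mice (Cre-negative). CSE is cystathionine gamma-lyase, the enzyme that makes cysteine from cystathionine and produces hydrogen sulfide in vessels. The labels give neither the promoter that drives Cre, nor the alleles of the Cre-negative mice, their age, or the time in culture.

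In the cycle, D cyclins with CDK4 and CDK6, and then E cyclins with CDK2, phosphorylate the retinoblastoma protein and free E2F factors, which switch on the genes of DNA replication. The INK4 and CIP/KIP inhibitors hold these kinases back. The B cyclins with CDK1, together with Polo and Aurora kinases, drive mitosis, and many of their genes are held silent in resting cells by the DREAM complex and switched on late by B-Myb and FOXM1. Most endothelial cells of the adult lung rest outside the cycle in vivo and can enter it in culture. H3K9ac sits on nucleosomes flanking active and poised starts.

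The counts were thin. Reads counted in all peaks came to 1173016, 679938 and 685131 in the CSE-KO libraries and 676056, 313610 and 610922 in the WT libraries, and the median tested peak held 32 reads per library. WT replicate 2 was the shallowest. No peak was assigned to Cth, the gene of CSE, so the mark there does not check the labels. Of 15 endothelial markers 14 had a peak, Vwf being the exception, and their 8 start peaks summed to 1094.0 to 1233.1 CPM in CSE-KO and 1200.9 to 1270.2 CPM in WT libraries. CPM is the read count of a peak divided by the TMM-adjusted size of its library, so that libraries of unequal depth can be compared. Library size was taken as the reads in the tested peaks, so a change of the mark shared by most peaks would not show. Of these 8 start peaks, 1 was higher and 1 lower in CSE-KO at an unadjusted p under 0.05 (edgeR quasi-likelihood test). Over all tested start peaks the shares were 2.13% and 3.36%. The smallest p was at Cdh5, lower in CSE-KO (log2 fold change -0.38, edgeR adjusted p = 0.616). It had 192.5 to 196.7 CPM in CSE-KO and 236.9 to 290.3 CPM in WT libraries, without overlap. At 1 other of the 8, all CSE-KO libraries lay above all WT libraries. Over all 7638 tested start peaks, the groups did not overlap at 384 with CSE-KO above WT and at 517 with CSE-KO below. The log2 fold changes of the 8 ran from -0.38 to 0.70. None of 10 leukocyte, 7 fibroblast or 6 smooth muscle and pericyte markers had a start peak, and a peak elsewhere was present for 1 leukocyte gene (Csf1r), 1 fibroblast gene (Col1a1) and 0 of the smooth muscle and pericyte genes. Of 8 epithelial markers 4 had a peak and Krt18 alone a start peak, at 1.73 to 8.96 CPM in CSE-KO and 10.1 to 23.1 CPM in WT libraries, too low to be tested. The part of other cell types in the results was not tested.

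The starts of these genes carry different sequence elements, and 8 promoters are shown here as examples of how the G1 genes and the S and G2/M genes differ in them. Each is the reference sequence of RefSeq (GRCm38.p6) for the 160 bases before the gene start, read 5′ to 3′ on the strand of the gene. Capitals mark, on either strand, a CCAAT box (CCAAT, bound by NF-Y), a CHR element (TTTGAA or TTCGAA, a site of DREAM), an E2F site (TTTCCCGC, TTTGGCGC or TTTCGCGC), a GC box (GGGCGG) or an E-box (CACGTG, a site of MYC). The G2/M genes come first, then a pair of replication genes, then the G1 genes.
Cdk1, chr10:69352913-69353072, minus strand: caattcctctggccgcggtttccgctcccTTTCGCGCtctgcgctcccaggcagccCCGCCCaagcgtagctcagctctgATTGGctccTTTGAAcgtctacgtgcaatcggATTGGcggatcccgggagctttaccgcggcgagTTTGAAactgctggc
Cdc20, chr4:118437344-118437503, minus strand: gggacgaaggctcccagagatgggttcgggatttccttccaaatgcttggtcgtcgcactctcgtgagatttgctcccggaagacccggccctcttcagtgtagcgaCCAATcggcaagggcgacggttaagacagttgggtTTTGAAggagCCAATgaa
Ccnb1, chr13:100786487-100786646, minus strand: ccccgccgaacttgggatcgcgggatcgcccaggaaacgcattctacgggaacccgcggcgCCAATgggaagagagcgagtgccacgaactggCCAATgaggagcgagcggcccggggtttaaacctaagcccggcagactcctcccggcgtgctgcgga
Mcm5, chr8:75109349-75109508, plus strand: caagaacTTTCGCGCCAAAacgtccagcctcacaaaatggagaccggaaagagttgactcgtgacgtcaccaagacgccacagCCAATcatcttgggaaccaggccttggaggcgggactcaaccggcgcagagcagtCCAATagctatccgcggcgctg
Mcm6, chr1:128359706-128359865, minus strand: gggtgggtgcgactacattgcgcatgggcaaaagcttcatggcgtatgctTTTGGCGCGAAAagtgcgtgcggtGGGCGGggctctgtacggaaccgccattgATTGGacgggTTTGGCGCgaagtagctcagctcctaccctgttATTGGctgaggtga
Cdk4, chr10:127063375-127063534, plus strand: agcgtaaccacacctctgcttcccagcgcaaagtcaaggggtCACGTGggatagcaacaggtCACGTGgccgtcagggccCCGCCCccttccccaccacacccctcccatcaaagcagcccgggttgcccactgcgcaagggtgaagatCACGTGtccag
Cdkn1b, chr6:134920241-134920400, plus strand: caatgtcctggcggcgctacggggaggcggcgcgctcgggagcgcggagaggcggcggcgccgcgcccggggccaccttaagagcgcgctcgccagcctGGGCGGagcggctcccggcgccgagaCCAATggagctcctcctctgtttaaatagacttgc
Ccne1, chr7:38107491-38107650, minus strand: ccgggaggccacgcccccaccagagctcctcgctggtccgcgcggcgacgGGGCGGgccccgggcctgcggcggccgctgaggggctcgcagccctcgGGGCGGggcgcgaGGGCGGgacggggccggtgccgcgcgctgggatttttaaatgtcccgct

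Over the whole window of 250 bases before and 50 after a start, 28 of the 36 genes had a RefSeq entry, with 34 promoters. Some genes had several, so the 14 G1 promoters came from 10 genes and the 17 S and G2/M promoters from 16 genes. The shares below are by promoter, not by gene. A CCAAT box stood in 16 of 17 promoters of S and G2/M genes (94.1%) and in 5 of 14 promoters of G1 cyclins, kinases and inhibitors (35.7%). In 8084 promoters of genes with a start peak in these data the share was 38.3%, and in all 32851 promoters 37.4%. At least 2 CCAAT boxes were held by 70.6% of S and G2/M promoters, 7.14% of G1 promoters and 15.1% of those with a start peak. CHR elements were found in 8 of 10 G2/M promoters (80.0%), against 13.7% of the promoters with a start peak and 19.2% of all. E2F sites were found in 4 of 7 replication promoters (57.1%), against 3.69% of those with a start peak and 1.84% of all. They also stood in 2 of 14 G1 promoters (14.3%) and 1 of 10 G2/M promoters (10.0%). The G1 promoters with an E2F site, not shown above, were those of Cdkn2a and of Cdk2, which also holds a CCAAT box. In Mcm5 and Mcm6 an E2F site on one strand overlaps another on the opposite strand, seen as a single run of capitals, and Cdk1 holds an E2F site, CHR elements and CCAAT boxes together. E-boxes were held by 3 of 14 G1 promoters (21.4%), Cdk4 carrying several, and by 0 of 17 S and G2/M promoters, against 10.6% of those with a start peak and 7.15% of all. GC boxes stood in 78.6% of G1 and 88.2% of S and G2/M promoters, against 64.5% of those with a start peak and 35.7% of all. Only the exact letters given were searched, so a promoter without a match, such as Ccne1 for E2F, may still hold a variant site. A match is a description of the letters and was not linked to binding.

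Most of these genes carried H3K9ac peaks. A peak was present for 88.9% of the 36 genes, against 45.1% of 21900 protein-coding genes in the RefSeq table. A start peak, taken as a peak centred within 1 kb of the annotated start or annotated as promoter, was present for 25 of the 36 genes (69.4%), against 33.8% of protein-coding genes. A start peak need not cover the start, and 15 of the 25 covered a RefSeq start of their own gene. Those of Ccnd3, Ccne1, Mcm2, Mcm3, Mcm6 and Cdk1 lay beside it. Ccne2, Aurkb, Mcm4 and Myc had no RefSeq entry to check. Of these 25 start peaks, 21 (84.0%) were centred downstream of the start, close to the 82.2% over all genes with a start peak. Their median width was 1215 bp, against 1078 bp over all such genes. Their median level was 60.1 CPM per kb of peak, against 60.2 CPM per kb over all such genes. The median level was thus that of a typical marked start of these cells.

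**Figure D1:**
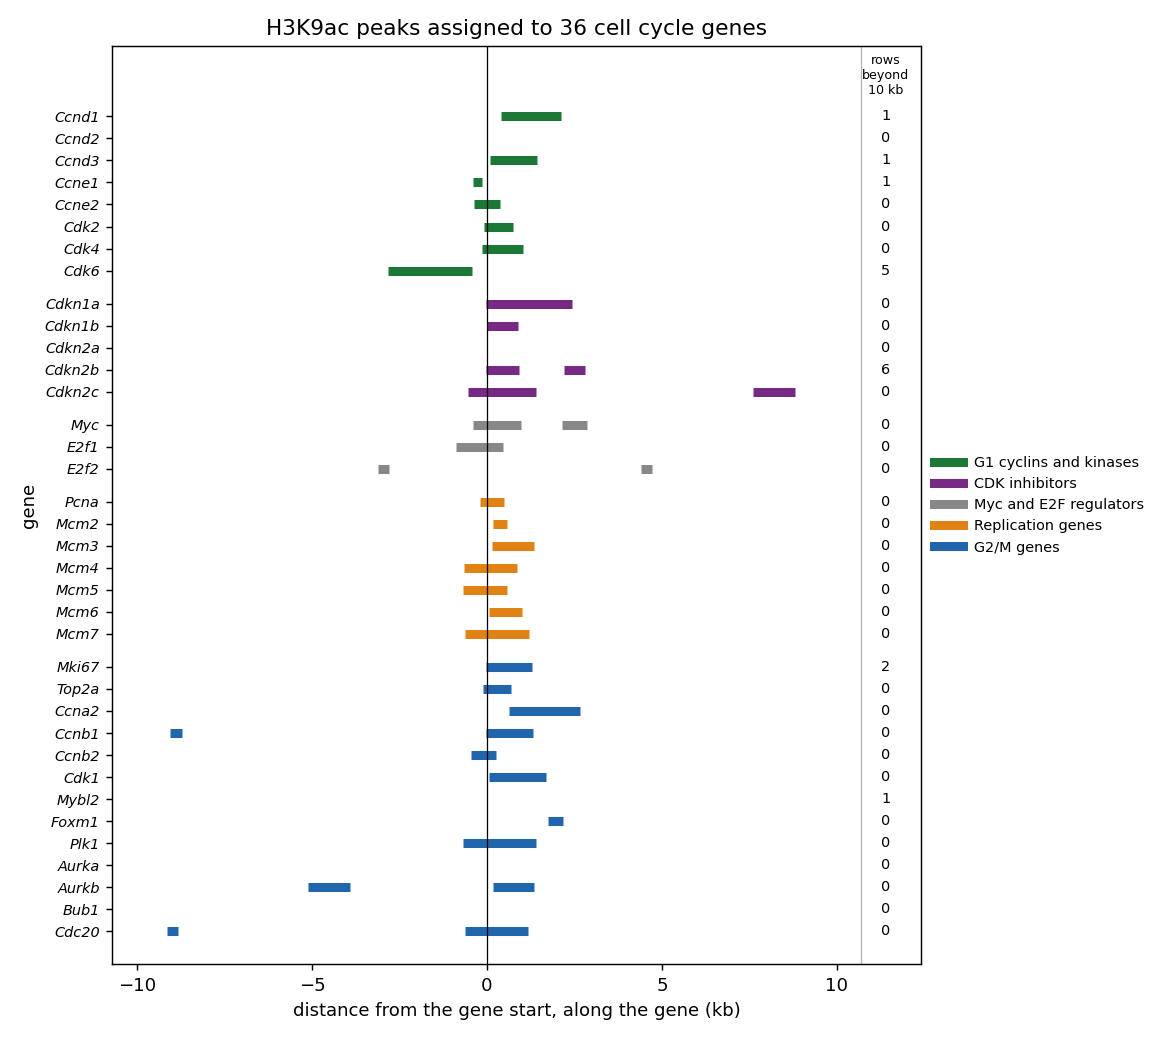
Peaks assigned to the 36 genes by distance from the annotated start (kb, positive along the gene); each bar is a peak drawn to its width, colours give the role, and the right column counts peaks beyond 10 kb. Replication genes have 1 peak each, a start peak, Cdkn2b and Cdk6 have 6 and 5 peaks beyond 10 kb, and 4 genes have none.

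The G1 genes and the S and G2/M genes differed in how their peaks were laid out. G1 cyclins, kinases and inhibitors (13 genes, 11 with a peak) had 27 peaks, of which 8 were start peaks and 19 lay elsewhere, at 7 genes. The 20 S and G2/M genes, 18 with a peak, had 23 peaks, of which 15 were start peaks and 8 lay elsewhere, at 7 genes. That gave 2.45 peaks per gene with a peak in the G1 set, 1.28 in the S and G2/M set and 1.6 over all symbols. Cdkn2b with 8 peaks and Cdk6 with 6 held most of the G1 surplus, while each of the 7 replication genes had exactly 1 peak, a start peak. These numbers depend on how the deposited annotation gives peaks to the nearest start, and on the rule of 1 kb. By that rule the peak of Cdkn1a counts as lying elsewhere, though it covers the RefSeq start of the gene. The difference in layout was not tested.

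No member peak passed the test for a difference between CSE-KO and WT cells. Of the 47 member peaks with enough counts to be tested, 0 were called at an adjusted p under 0.05 (edgeR quasi-likelihood test, Benjamini-Hochberg over all peaks), and DESeq2 and limma voom also called 0. Over all 16134 tested peaks 14 were called, or 0.0868%. The smallest adjusted p of a member was 0.637. At an unadjusted p under 0.05, edgeR, DESeq2 and limma voom each gave 1 member peak, and by edgeR it was higher in CSE-KO, where 3.01% of all tested peaks passed, while 0 were lower, where 4.07% of all did. The libraries of the groups did not overlap at 1 tested member peak with CSE-KO above WT (6.09% of all tested peaks) and at 2 with CSE-KO below WT (6.9% of all). The median log2 fold change of CSE-KO over WT was -0.04 over the 47 peaks and 0.00 over all tested peaks. The scaling holds the typical peak near 0, so these medians do not show whether the mark changed over all peaks. The range was -0.75 to 0.91 with a median standard error (SE) of 0.29, which limits what a single peak could show at this depth. Of the 24 tested start peaks, 17 were below 0 (70.8%), against 53.1% of all tested start peaks. Their median was -0.07, against -0.02 over all. In these bulk libraries, a change in the share of cycling cells and a change of the mark in each cell cannot be told apart. Whether each library came from its own mouse or culture is not in the labels, so the p-values rest on a spread that may be partly technical.

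**Figure D2:**
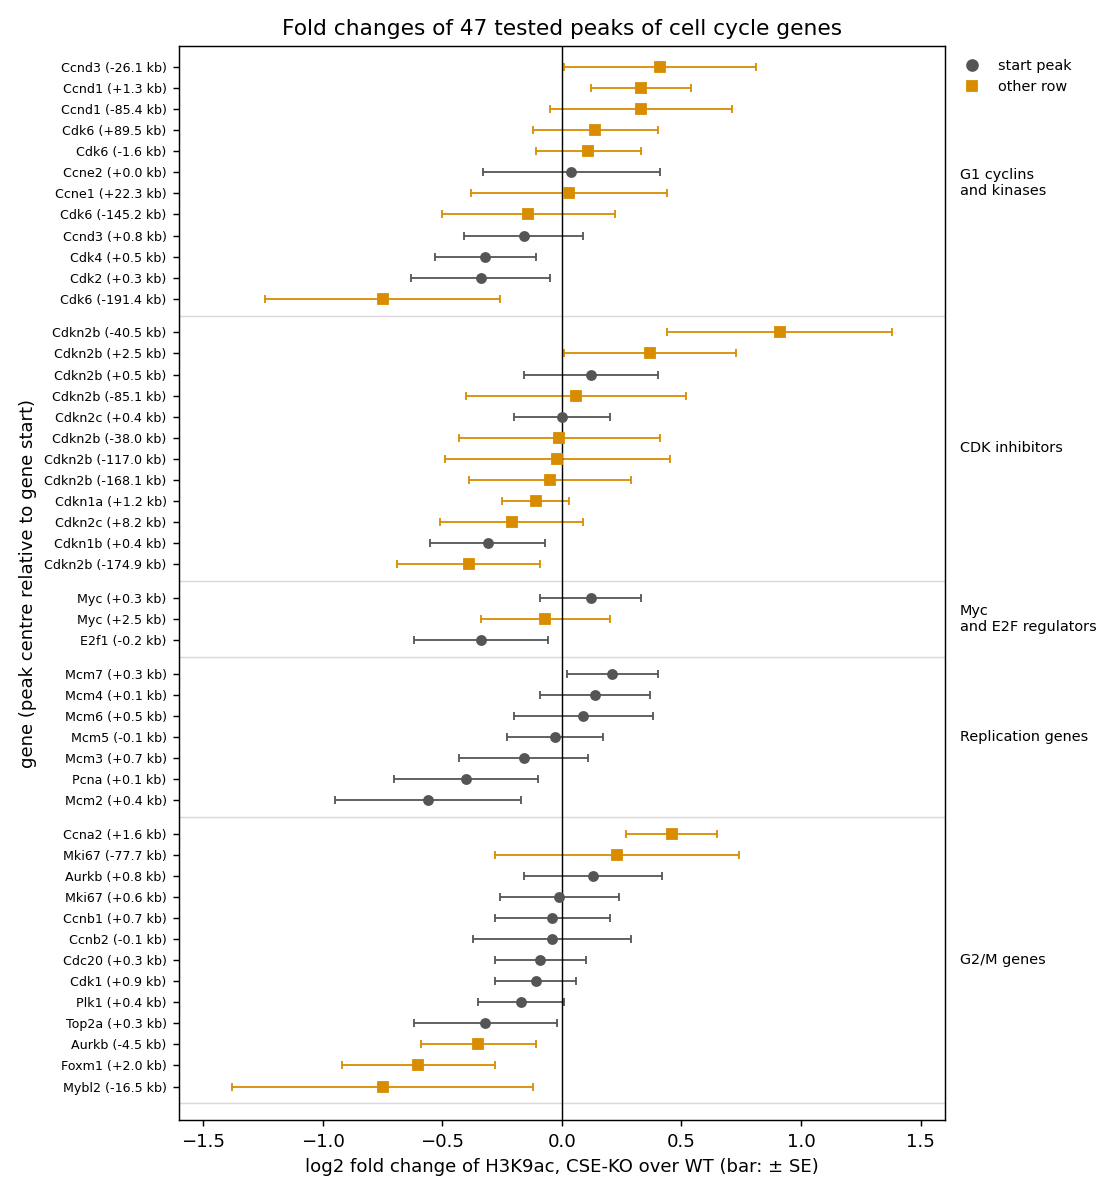
Log2 fold change of CSE-KO over WT for the 47 tested member peaks, grouped by role, with the distance of each peak's centre from the gene start; bars are ± SE, circles are start peaks and squares other peaks. Values run from -0.75 to 0.91, and the start peaks lie between -0.56 and 0.21.

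Among the D-type and E-type cyclins and their kinases, 12 of 15 peaks were tested, 7 above 0 and 5 below, and the median log2 fold change was 0.03. Ccnd1 encodes cyclin D1, the cyclin that couples growth factor signals to the cycle. Its peak in intron 1 (chr7:144937808-144939526, centred 1.26 kb into the gene) had 95.9, 138.8 and 125.7 CPM in CSE-KO and 96.9, 79.2 and 100.8 CPM in WT libraries. CSE-KO replicate 1 fell within the WT values and the other CSE-KO libraries lay above them. The means were 120.1 ± 22.0 CPM in CSE-KO and 92.3 ± 11.5 CPM in WT (SD, n = 3 each), and the log2 fold change came to 0.33 with an SE of 0.21 (edgeR adjusted p = 0.775). An intergenic peak assigned to Ccnd1, 85.4 kb upstream, had the same log2 fold change with an SE of 0.38.

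The start peak of Cdk4, the kinase partner of D cyclins (chr10:127063407-127064576, intron 1), had 94.2, 107.5 and 71.0 CPM in CSE-KO and 125.7, 85.8 and 121.0 CPM in WT libraries. The groups overlapped through WT replicate 2. Its log2 fold change was -0.32 with an SE of 0.21 (edgeR adjusted p = 0.785), and without CSE-KO replicate 3 it was -0.19. Per kb of peak it was the highest of the G1 starts, at 77.7 ± 15.8 CPM in CSE-KO and 94.7 ± 18.6 CPM in WT (SD, n = 3 each). Cdk2, the partner of E cyclins, had a start peak at -0.34 (SE 0.29) and Ccnd3, for cyclin D3, at -0.16 (SE 0.25).

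Cdk6, the other D-cyclin kinase, had no start peak by the distance rule, but a peak of 2396 bp just upstream of its start, annotated as a CpG island, at 87.3, 147.8 and 90.2 CPM in CSE-KO and 90.8, 115.5 and 95.8 CPM in WT libraries (log2 fold change 0.11, SE 0.22). This peak also holds the start of Gm36470, so its reads cannot be given to one gene. A small intergenic peak 191.4 kb upstream (chr5:3152258-3152662) had 11.2, 10.4 and 16.3 CPM in CSE-KO and 24.2, 23.1 and 16.8 CPM in WT libraries. All CSE-KO libraries lay below all WT libraries there, though CSE-KO replicate 3 and WT replicate 3 nearly met. The log2 fold change was -0.75 with an SE of 0.49 (edgeR adjusted p = 0.784). Both E cyclins had weak start peaks, Ccne2 at 48.9 ± 18.1 CPM per kb in CSE-KO and 44.0 ± 26.7 in WT, and Ccne1 at 39.7 ± 10.4 CPM per kb in CSE-KO and 40.8 ± 29.8 in WT (SD, n = 3 each). The Ccne1 peak was too low to be tested. The remaining tested peaks away from the starts of Ccnd3, Ccne1 and Cdk6 had log2 fold changes of -0.14 to 0.41, each within about 1 SE of 0.

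The CDK inhibitors held the member peak with the most reads, which is also the widest at 2432 bp. Per kb it had 100.7 CPM in CSE-KO and 108.6 CPM in WT. At Cdkn1a, which encodes p21, the inhibitor induced by p53, the peak over intron 1 and a CpG island (chr17:29093753-29096184) had 241.0, 270.1 and 223.3 CPM in CSE-KO and 281.6, 277.1 and 233.5 CPM in WT libraries. The groups overlapped. The means were 244.8 ± 23.7 CPM in CSE-KO and 264.1 ± 26.6 CPM in WT (SD, n = 3 each), and the log2 fold change came to -0.11 with an SE of 0.14 (edgeR adjusted p = 0.918). That SE was the smallest among the member peaks described here. Leaving out single libraries moved the fold change between -0.20 (without WT replicate 3) and -0.04 (without WT replicate 1). The peak covers the RefSeq start of the gene but is centred 1.2 kb into it, so the rule of 1 kb leaves it out of the start peaks.

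At Cdkn1b, which encodes p27, the inhibitor of resting cells, the start peak (chr6:134920397-134921292, in the 5′ UTR of exon 1) had 65.7, 73.1 and 56.2 CPM in CSE-KO and 74.2, 79.2 and 89.0 CPM in WT libraries. All CSE-KO libraries were below all WT libraries, with 73.1 CPM in the highest CSE-KO and 74.2 CPM in the lowest WT library. The means were 65.0 ± 8.49 CPM in CSE-KO and 80.8 ± 7.56 CPM in WT (SD, n = 3 each), and the log2 fold change came to -0.31 with an SE of 0.24 (edgeR adjusted p = 0.83). The difference did not pass the test. Among all start peaks the level of Cdkn1b per kb stood at percentile 80.4.

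Cdkn2b, the gene of the INK4 inhibitor p15, had 8 peaks, of which 6 lay in introns of the noncoding transcript NR_132431 on the far side of its start. The peak 40.5 kb upstream (chr4:89351401-89351702) had 32.0, 17.9 and 26.6 CPM in CSE-KO and 13.6, 19.8 and 10.1 CPM in WT libraries. It had the highest fold change of the members, with overlap between CSE-KO replicate 2 and WT replicate 2 and a log2 fold change of 0.91 with an SE of 0.47 (edgeR adjusted p = 0.721). The peak 174.9 kb upstream (chr4:89485391-89486555) had 38.0, 59.7 and 41.4 CPM in CSE-KO and 51.5, 39.6 and 82.3 CPM in WT libraries, and a log2 fold change of -0.39 with an SE of 0.30 (edgeR adjusted p = 0.826). Its fold change was -0.04 without WT replicate 3, and leaving out CSE-KO replicate 1 gave -0.24 and CSE-KO replicate 2 gave -0.59. The remaining 6, the start peak at 0.12 (SE 0.28) among them, had log2 fold changes of -0.05 to 0.37. The peaks of this locus thus stood on both sides of 0. Cdkn2c, the gene of the INK4 inhibitor p18, had a start peak at 0.00 (SE 0.20), where WT replicate 2 had 46.2 CPM and every other library 101.1 CPM or more.

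Myc encodes the growth-promoting transcription factor that raises G1 cyclins. Its start peak (chr15:61984946-61986320, in the 5′ UTR of exon 1) had 109.7, 111.9 and 122.7 CPM in CSE-KO and 116.6, 135.3 and 73.9 CPM in WT libraries. The CSE-KO values lay inside the WT range. The log2 fold change was 0.12 with an SE of 0.21 (edgeR adjusted p = 0.942), and without WT replicate 3 it was -0.12. A second peak, in exon 2 (chr15:61987480-61988201), had 51.8, 64.2 and 56.2 CPM in CSE-KO and 63.6, 46.2 and 65.5 CPM in WT libraries (log2 fold change -0.07, SE 0.27, edgeR adjusted p = 0.98). At E2f1, an activator of replication genes, the start peak (chr2:154568970-154570316) had 56.2, 34.3 and 47.3 CPM in CSE-KO and 62.1, 46.2 and 65.5 CPM in WT libraries. The groups overlapped through WT replicate 2. Its log2 fold change was -0.34 with an SE of 0.28 (edgeR adjusted p = 0.854). Leaving out CSE-KO replicate 1 gave -0.54 and leaving out CSE-KO replicate 2 gave -0.18. E2f1 had the lowest level per kb of the 25 start peaks by the mean over both groups, at percentile 9.39 of all start peaks, while in WT alone Ccne1 was lower. E2f2, another activating E2F, had a pair of intronic peaks, both too low to be tested.

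The replication genes were Pcna, the sliding clamp of DNA polymerase, and Mcm2 to Mcm7, the 6 subunits of the replicative helicase. All 7 had a start peak, 4 below 0 and 3 above, and the log2 fold changes had a median of -0.03 and a range of -0.56 to 0.21. The Pcna peak (chr2:132252707-132253375, in the 5′ UTR of exon 1) had 44.9, 32.8 and 56.2 CPM in CSE-KO and 48.4, 85.8 and 52.1 CPM in WT libraries. WT replicate 2, the shallowest library, stood apart from the rest. The log2 fold change was -0.40 with an SE of 0.30 (edgeR adjusted p = 0.817), and it was -0.17 without WT replicate 2 and -0.24 without CSE-KO replicate 2.

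At Mcm2 (chr6:88898196-88898608, intron 1) the levels were 17.3, 32.8 and 19.2 CPM in CSE-KO and 28.8, 42.9 and 31.9 CPM in WT libraries. CSE-KO replicate 2 overlapped the WT libraries and the other CSE-KO libraries lay below them, and the log2 fold change was -0.56 with an SE of 0.39 (edgeR adjusted p = 0.806), with -0.36 when CSE-KO replicate 1 was left out and -0.88 when CSE-KO replicate 2 was. Mcm7 (chr5:138170697-138172498) had 132.2, 138.8 and 139.0 CPM in CSE-KO and 101.4, 158.4 and 107.5 CPM in WT libraries, with the CSE-KO values inside the WT range (log2 fold change 0.21, SE 0.19, edgeR adjusted p = 0.858). Leaving out WT replicate 2 gave 0.38 and leaving out WT replicate 1 gave 0.09. This peak also holds the start of Ap4m1, which runs the other way, so the reads cannot be given to one gene. The helicase subunits stood on both sides of 0. Mcm4 stood at 0.14 (SE 0.23), Mcm6 at 0.09 (SE 0.29), Mcm5 at -0.03 (SE 0.20) and Mcm3 at -0.16 (SE 0.27). By level per kb Mcm5 was second of the 25 starts in CSE-KO, at 84.9 ± 8.59 CPM in CSE-KO and 84.9 ± 10.5 CPM in WT (SD, n = 3 each).

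**Figure D3:**
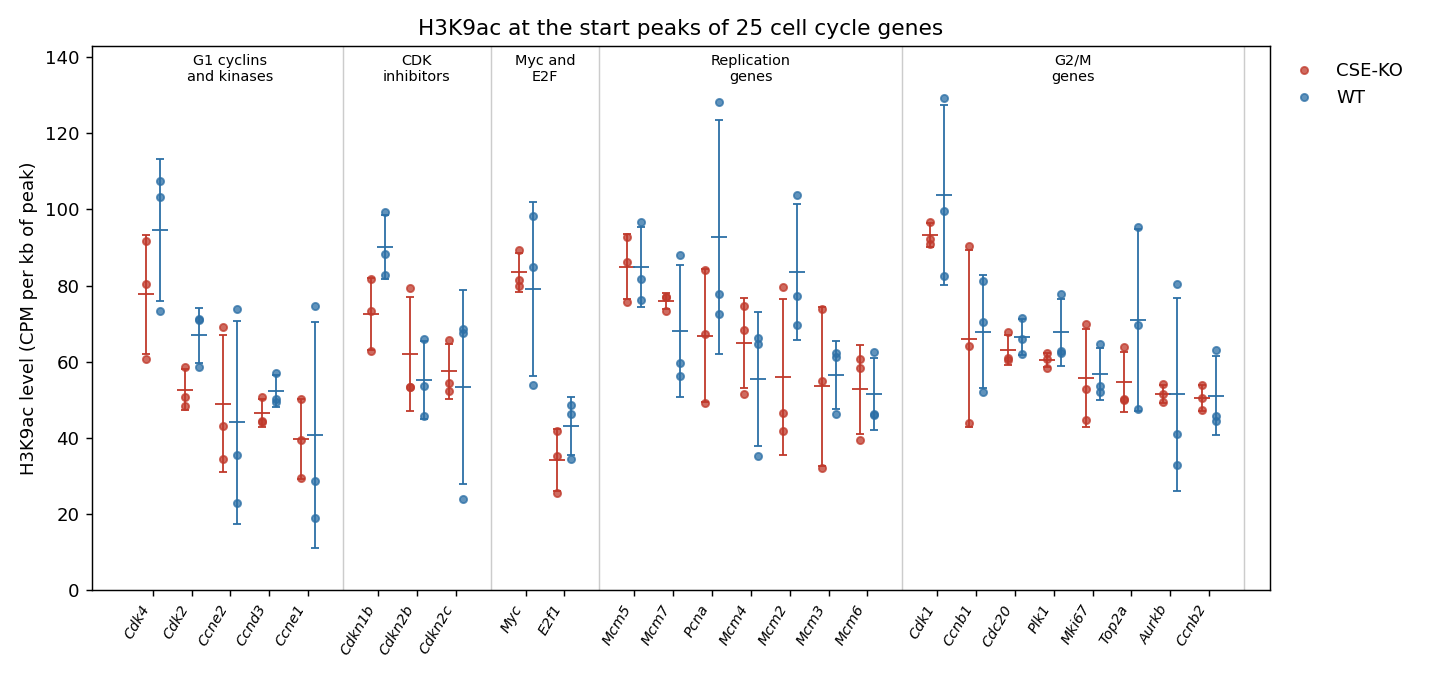
H3K9ac level (CPM per kb of peak) at the 25 start peaks in 3 CSE-KO libraries (red, left of each pair) and 3 WT libraries (blue, right); points are libraries, horizontal marks the mean and bars ± SD. Within a gene the groups overlap except at Cdkn1b, and the levels span 34.1 CPM per kb at E2f1 to 93.4 CPM per kb at Cdk1 in CSE-KO.

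For the G2/M genes, 13 of 16 peaks were tested, of which 10 were below 0 and 3 above, and the median log2 fold change was -0.09. The smallest p of any member was at Ccna2, the gene of cyclin A2, which acts from S phase into G2. Its single peak (chr3:36570394-36572422, over intron 2 and a CpG island, centred 1.63 kb into the gene) had 127.0, 141.8 and 158.2 CPM in CSE-KO and 96.9, 95.7 and 112.6 CPM in WT libraries. All CSE-KO libraries were above all WT libraries. The means were 142.3 ± 15.6 CPM in CSE-KO and 101.7 ± 9.42 CPM in WT (SD, n = 3 each), and the log2 fold change was 0.46 (SE 0.19, unadjusted p = 0.0181, edgeR adjusted p = 0.637). It did not pass the adjustment, and over 13 alternatives the log2 fold change was 0.38 to 0.55 and the adjusted p 0.569 to 1.0.

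Cdk1, the kinase that drives entry into mitosis, had the highest start peak per kb in either group, at 93.4 ± 3.08 CPM per kb in CSE-KO and 103.8 ± 23.6 in WT (SD, n = 3 each), percentile 91.7 of all start peaks. The peak (chr10:69351232-69352865, intron 1) had 148.6, 158.2 and 150.8 CPM in CSE-KO and 134.7, 211.1 and 163.0 CPM in WT libraries. The CSE-KO values lay inside the WT range. The log2 fold change was -0.11 with an SE of 0.17 (edgeR adjusted p = 0.933), and without WT replicate 2 it was 0.03.

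Foxm1, a transcription factor of late cell cycle genes, had a peak in intron 1 (chr6:128364737-128365167) with 33.7, 40.3 and 32.5 CPM in CSE-KO and 34.8, 62.7 and 67.2 CPM in WT libraries. WT replicate 1 fell within the CSE-KO values and the other WT libraries lay above them. The log2 fold change was -0.60 with an SE of 0.32 (edgeR adjusted p = 0.731), and without WT replicate 3 it was -0.37. Aurkb, the Aurora kinase of the chromosomal passenger complex, had an intergenic peak 4.51 kb upstream (chr11:69040535-69041725) with 83.8, 46.3 and 78.4 CPM in CSE-KO and 102.9, 66.0 and 92.4 CPM in WT libraries. The groups overlapped through WT replicate 2. The log2 fold change was -0.35 with an SE of 0.24 (edgeR adjusted p = 0.806), while the start peak of the same gene stood at 0.13 (SE 0.29). The upstream peak was at -0.14 without CSE-KO replicate 2 and -0.21 without WT replicate 1.

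The other G2/M start peaks stood between -0.32 and -0.01. Mki67, the proliferation marker Ki-67, stood at -0.01 (SE 0.25), with 70.0, 92.5 and 59.1 CPM in CSE-KO and 71.2, 85.8 and 68.9 CPM in WT libraries. Both mitotic cyclins, Ccnb1 and Ccnb2, had log2 fold changes of -0.04 (SE 0.24 and 0.33). Cdc20, an activator of the anaphase-promoting complex, stood at -0.09 (SE 0.19), Plk1, the Polo kinase, at -0.17 (SE 0.18) and Top2a, the topoisomerase of replicating chromosomes, at -0.32 (SE 0.30). Mybl2, the gene of B-Myb, had no start peak, and its single peak, 16.5 kb upstream in intron 10 of the neighbouring gene Ift52, ranged from 2.59 to 28.1 CPM in CSE-KO and from 6.06 to 29.7 CPM in WT libraries. A small peak 8.89 kb upstream of Ccnb1 in an LTR repeat had 6.91, 5.97 and 8.87 CPM in CSE-KO and 18.2, 9.9 and 28.6 CPM in WT libraries. The groups did not overlap there, but it was below the count filter and was not tested.

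Set against each other, the G1 starts and the S and G2/M starts did not separate the groups. The 8 start peaks of the G1 cyclins, kinases and inhibitors summed to 444.9, 531.3 and 453.9 CPM in CSE-KO and 551.1, 425.6 and 566.2 CPM in WT libraries. Their means were 476.7 ± 47.5 CPM in CSE-KO and 514.3 ± 77.2 CPM in WT (SD, n = 3 each), a log2 ratio of -0.11. The 15 start peaks of the S and G2/M genes summed to 1115.4, 1300.0 and 1236.1 CPM in CSE-KO and 1164.2, 1398.8 and 1261.7 CPM in WT libraries. Their means were 1217.1 ± 93.8 CPM in CSE-KO and 1274.9 ± 117.9 CPM in WT (SD, n = 3 each), a log2 ratio of -0.07. Both differences of means were smaller than the SD of either group. The S and G2/M sum over the G1 sum was 2.51, 2.45 and 2.72 in CSE-KO and 2.11, 3.29 and 2.23 in WT libraries. The CSE-KO libraries all lay inside the WT range, of which WT replicate 2, the shallowest library, set the top. The other WT libraries lay below every CSE-KO library, so the overlap of this ratio rests on WT replicate 2. Without WT replicate 2 the log2 ratio of CSE-KO over WT was -0.23 for the G1 sum and 0.00 for the S and G2/M sum. These sums depend on the distance rule. With a centre within 2 kb, chosen after seeing the data, Cdkn1a, Ccnd1, Cdk6, Ccna2 and Foxm1 enter, the G1 sum averaged 950.1 CPM in CSE-KO and 971.3 CPM in WT, and the ratio was 1.6 or less in each CSE-KO library and 1.27 to 1.74 in WT libraries. The CSE-KO libraries lay inside the WT range there too, and WT replicate 3 lay among the CSE-KO values.

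**Figure D4:**
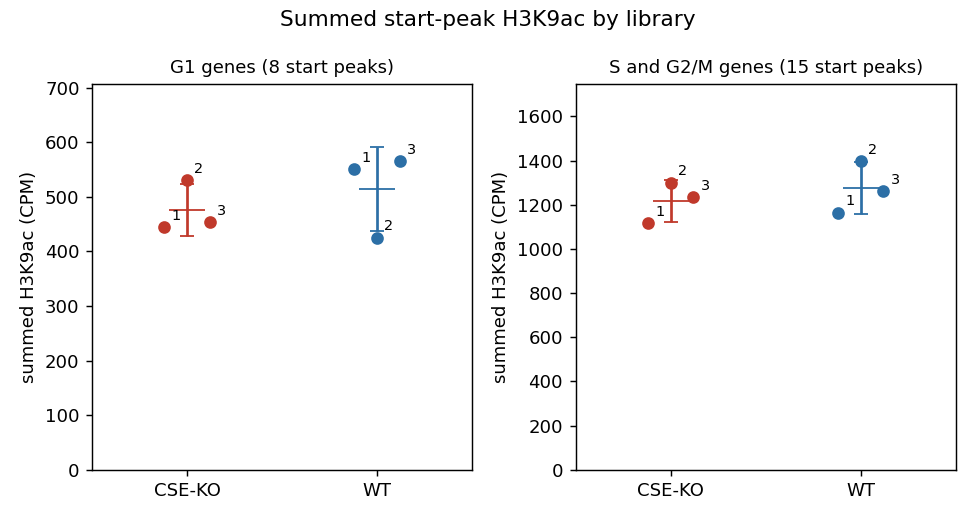
Summed start-peak H3K9ac (CPM) per library for 8 G1 genes (left) and 15 S and G2/M genes (right); points are libraries with their replicate number, horizontal marks the mean and bars ± SD, and both axes start at 0. The CSE-KO libraries overlap the WT libraries in both panels, and WT replicate 2 is the lowest in the G1 panel and the highest in the S and G2/M panel.

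By median, the tested start peaks stood at -0.16 for 7 G1 genes, 5 of them below 0, and at -0.04 for 15 S and G2/M genes, 11 of them below 0. Away from the starts, the medians were 0.03 over 17 tested G1 peaks and -0.35 over 5 tested S and G2/M peaks. The difference between these sets was not tested.

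Some member starts lay under a peak that carries the symbol of a neighbour, and these peaks were chosen after their values were seen. The peak over the start of Aurka, a mitotic kinase, carried the symbol of Cstf1, which starts on the other strand (chr2:172369990-172371824). It had 119.2, 111.9 and 153.8 CPM in CSE-KO and 151.4, 145.2 and 122.6 CPM in WT libraries, and the groups overlapped (log2 fold change -0.13, SE 0.18, edgeR adjusted p = 0.926). Cdkn2a, which encodes p16 and p19ARF, has a downstream RefSeq start that lay under no peak. The upstream start of Cdkn2a lay at the outermost base of a peak assigned to Gm12610 (chr4:89294619-89296163), which extended upstream from there. There the levels were 44.9, 71.6 and 51.8 CPM in CSE-KO and 60.6, 26.4 and 42.0 CPM in WT libraries, again with overlap (log2 fold change 0.28, SE 0.30, edgeR adjusted p = 0.89). The start of Foxm1 was covered by a peak assigned to Rhno1 (chr6:128361748-128363519), with 100.2, 107.5 and 128.6 CPM in CSE-KO and 96.9, 191.3 and 122.6 CPM in WT libraries. Per kb it had 63.3 CPM in CSE-KO and 77.3 CPM in WT, against 82.4 CPM in CSE-KO and 127.4 CPM in WT at the narrower intronic peak under the symbol of Foxm1. It stood at a log2 fold change of -0.23 with an SE of 0.21 (edgeR adjusted p = 0.862). Inside Ccnd2, for cyclin D2, a peak assigned to 9330179D12Rik lay 2093 bp from the start and stood at -0.24 (SE 0.26, edgeR adjusted p = 0.89). For Bub1, a kinase of the spindle checkpoint, no peak lay in the gene.

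Among other genes of the same machinery the smallest adjusted p was 0.365 by edgeR. Of 25 other G1 control genes, 20 had a tested start peak, and the median log2 fold change was 0.12, 13 above 0 and 7 below. The smallest p was at Rbl2, the gene of the pocket protein p130, with 89.0, 104.5 and 88.7 CPM in CSE-KO and 84.8, 56.1 and 67.2 CPM in WT libraries. The CSE-KO libraries were above all WT libraries (log2 fold change 0.39, SE 0.23, edgeR adjusted p = 0.766). Of 45 other replication genes, 33 were tested, with a median of -0.13, 15 above 0 and 18 below. The smallest p there was at Orc5, a subunit of the origin recognition complex, with 58.7, 64.2 and 59.1 CPM in CSE-KO and 72.7, 122.1 and 134.4 CPM in WT libraries. The CSE-KO libraries were below all WT libraries (log2 fold change -0.83, SE 0.24, edgeR adjusted p = 0.365). Of 48 other G2/M genes, 37 were tested, with a median of -0.05, 14 above 0 and 23 below. The smallest p was at Cenpa, the centromeric histone, with 33.7, 28.4 and 31.1 CPM in CSE-KO and 40.9, 75.9 and 72.2 CPM in WT libraries. The groups did not overlap (log2 fold change -0.96, SE 0.31, edgeR adjusted p = 0.449). At an unadjusted p under 0.05, the 3 lists gave 0 higher and 0 lower of 20 for G1 control, 1 higher and 1 lower of 33 for replication and 0 higher and 3 lower of 37 for G2/M. Over all 7638 tested start peaks the shares were 2.13% higher and 3.36% lower. All CSE-KO libraries lay above all WT libraries at 2 G1 control, 2 replication and 1 G2/M start peaks, and at 384 of all 7638. They lay below all WT libraries at 0, 5 and 5 start peaks of these lists, and at 517 of all 7638.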

How the data were processed

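H3K9ac CUT&RUN libraries of 3 CSE-KO and 3 WT samples were compared, with groups taken from the sample titles. Libraries were made with a ThruPLEX kit and sequenced as short paired reads, per the labels' protocols. The submitters' processing notes name, without settings, featureCounts, DESeq2 1.36.0, Picard 3.1.1, STAR 2.7.11a and Trimmomatic 0.39. The sources used here do not give the peak caller. The authors deposited 1 table with the raw count per peak and library, and these counts were used. The table holds 17901 peaks while its row identifiers reach 23867, and 12 other columns of normalized values per library were not used. Their names carry a different numeric prefix in each group, whose meaning is not given, so a batch cannot be told apart from the groups. The notes name build mm39, but the coordinates follow GRCm38: for 67.1% of 17674 peaks the implied start lay within 100 bp of a RefSeq gene end.

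The quasi-likelihood test of edgeR 4.0.16 in R 4.3.3 (glmQLFit, glmQLFTest, two-sided) was run on TMM-scaled counts after filterByExpr at a minimum count of 10. Benjamini-Hochberg adjustment covered all 16134 tested peaks, and 0.05 was the threshold. The filter removed 1767 peaks, 8 of them member peaks. SEs come from the quasi-likelihood F statistic. Libraries of a group differed by more than sampling noise in every pair (chi-square of 1.87 to 2.15 per degree of freedom). Alternatives were RLE factors, library size alone, DESeq2 1.42.0, limma voom 3.58.1, a mean count of 50 or more, no filter, a replicate block and each library left out. The scripts were tested on simulated data. A start peak is centred within 1 kb of the deposited start or annotated as promoter. Where a gene had several, the highest was kept.

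Values per library are given, for each role, for the highest peak and the up to 3 tested peaks with the smallest unadjusted p. Other members are given by fewer values. The members, lists and rules were chosen with earlier results of these data known. Promoters are from RefSeq (GRCm38.p6), searched on both strands. No entry was found for Ccna2, Ccnd1, Ccnd2, Ccne2, Aurkb, Foxm1, Mcm4 and Myc.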

Additional observations from a re-analysis of the deposited data

How the results depend on the processing

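No member peak was called under any of the 13 alternatives for the fit. Over all tested peaks the count of 14 became 7 with DESeq2 and 8 at a mean count of 50 or more. Leaving out single libraries gave 6 (without CSE-KO replicate 1) to 13, with 8 without CSE-KO replicate 3 and 7 without WT replicate 3. Fewer samples or fewer tested peaks enter some of these fits. Of 17 named peaks 3 turned sign: Myc at the start to -0.12 without WT replicate 3, Myc in exon 2 to 0.01 without CSE-KO replicate 1, and Cdk1 to 0.03 without WT replicate 2. Over the single libraries left out these ranged from -0.12 to 0.25, -0.18 to 0.01 and -0.26 to 0.03. The median of the Myc and E2F peaks was 0.15 at a mean count of 50 or more, where fewer peaks were tested. The other medians and the log2 ratios of the summed start peaks moved by less than the replicate spread, the ratios over alternatives chosen after seeing the data too: a start peak centre within 2 kb gave -0.03 for G1 and -0.04 for S and G2/M genes, and adding the peaks under a neighbour's symbol gave -0.06 and -0.09. Over single libraries left out, the ratio was -0.23 to -0.04 for G1 and -0.13 to 0.00 for S and G2/M genes.

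With the replicate number as a block, 15 peaks were called over all peaks and 0 among the members. Same-numbered libraries deviated together with Pearson's r of 0.0651, 0.0141 and 0.00513 across peaks, none over 0.1, so the numbers were not taken to pair the samples. The median SE of 0.29 among the tested members, and the 8 members under the filter, limit what these counts could show.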
